A study of Rattus norvegicus with 20 samples.

Results

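The liver response to an aryl hydrocarbon receptor (AhR) ligand in the diet was described by comparing 5 rats fed BNF with 5 rats fed the control diet, 10 of the 20 arrays of the series. All 20 animals were female Sprague Dawley rats assigned at random to 4 groups of 5 and kept on their diet for 24 days. The control rats ate a rodent mash (Harlan Teklad), and the BNF rats ate this mash with 5,6-benzoflavone at 1650 mg per kg of diet. The remaining groups received dithiolethiones in the same mash, D3T (3H-1,2-dithiole-3-thione) at 600 mg per kg and its 4-methyl-5-pyrazinyl derivative, labelled OLT, at 500 mg per kg. Frozen whole liver gave RNA for 1 Affymetrix 1-colour array per rat, and the deposited values are GCRMA probe set summaries on the log2 scale, on which a step of 1 is a 2-fold change. A probe set was kept when its log2 value was above 4 in at least 5 of the 20 arrays. The 12947 kept probe sets named 7837 genes, and the probe set with the highest mean stood for its gene. Group means under about 4 lie at the level that background correction leaves, so the size of a change that starts or ends there rests on that level.

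AhR is a transcription factor that waits in the cytosol in a complex with the chaperone Hsp90 and its co-chaperone p23 (Ptges3). A bound ligand sends it to the nucleus, where it pairs with Arnt and binds DNA at elements with the core GCGTG. Its best known targets in liver are the cytochromes P450 of family 1, which oxidise planar aromatic compounds, and a battery of enzymes such as Nqo1 and Aldh3a1 that act on the quinones and aldehydes formed. Tiparp and Ahrr are targets whose products restrain the receptor.

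The labels were checked before the comparison. Hepatocyte genes were abundant in both groups, with albumin (Alb) at 15.86 or more in the control arrays and at 16.06 or more in the BNF arrays. Each BNF array correlated more closely with the other BNF arrays (mean r across kept probe sets from 0.9808 to 0.9863) than with the control arrays (0.9647 to 0.9768). The arrays labelled D3T 5 and OLT 1 each resembled the other dithiolethione group more than their own. They enter BNF versus control only through the variance that the fit shares among the 4 groups, and the counts of called genes that changed by over 1.5 times without them are given both ways. OLT 5 correlated less closely with the other OLT arrays (mean r 0.9648) than with the control (0.97) or BNF arrays (0.9683). It was left out only when each array was left out in turn. With 5 arrays a group the precision of each value is limited, and nothing in the labels says whether rats were housed or processed in batches.

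BNF changed 327 of 7837 genes (4.17%), of which 139 (1.77%) rose and 188 (2.40%) fell, by limma's two-sided moderated test called when p, adjusted by Benjamini-Hochberg over all kept probe sets, was under 0.05. A gene that passed is written below as risen, fallen or called. The 4.17% of all genes is the share to set beside the percentage called in each gene list below. With the arrays labelled D3T 5 and OLT 1 left out the count was 404 (5.16%), with 169 (2.16%) higher and 235 (3.00%) lower, and 318 of the 327 were called both ways. When each of the 20 arrays was left out in turn, 173 of the 327 genes (71 higher and 102 lower) were called every time. Increases reached further than decreases. Their median size was 1.02 against -0.75, and 8 increases but 2 decreases lay beyond 4 on the log2 scale. Among the 8, Cyp1b1, Rbm24, Lcn2, Aldh3a1, Scn4b and Vxn passed the filter only through the BNF arrays. Their control means lay at background, so the size of these increases rests on that level. Of the risen genes, 113 started from a control mean above 4 and 26 from background, and 23 had passed the filter on low values only through the BNF arrays. Between the 5 BNF and 5 control arrays 606 genes (7.73%) did not overlap, 262 of them called. The split of called genes into 42.5% higher depended on the scaling, since it became 58.5% with each array centred on its median and 56.3% after a further quantile normalization. The median difference over all genes was -0.06 as deposited and 0.01 after centring.

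**Figure D1:**
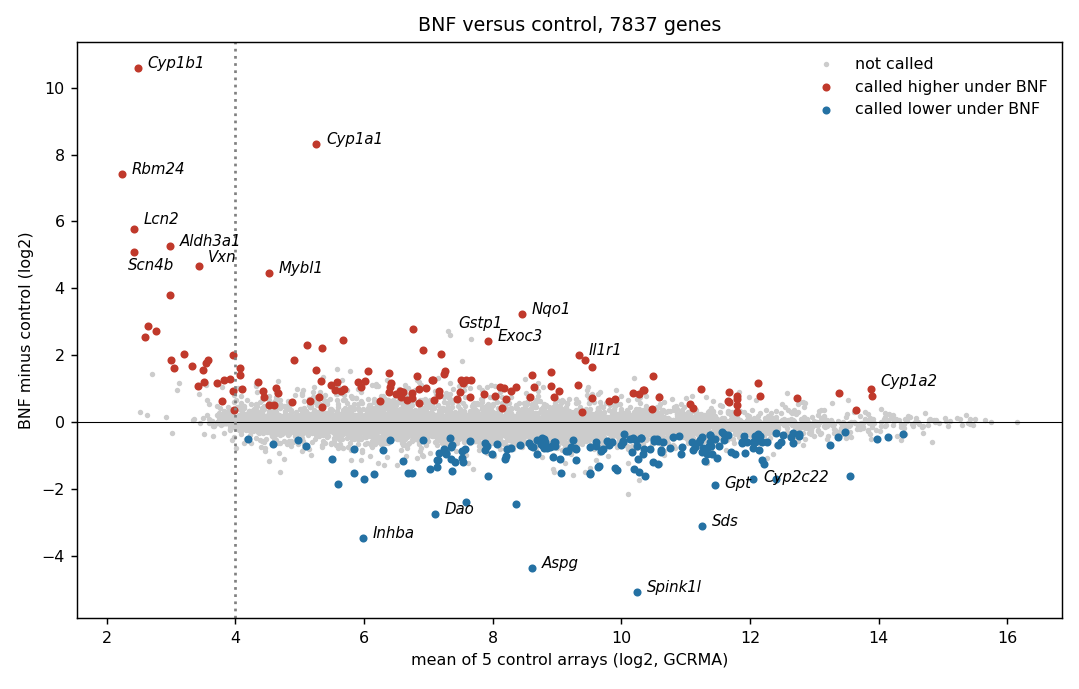
Each point is 1 of 7837 genes, with the mean of the 5 control arrays on the x axis and BNF minus control on the y axis, both in log2. Red points are the 139 genes called higher and blue points the 188 called lower; the dotted line at 4 marks the background level, and the largest increases stand to its left or just to its right.

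Of 15 AhR target genes listed, 13 had a probe set of their own and 10 were measured above the filter. Of these 10, 6 rose and 0 fell (60% called, against 4.17% of all genes), with a median difference of 1.12 against -0.06 over all genes. Cyp1b1 and Aldh3a1 passed the filter only through the BNF arrays and had to differ, so the count is a description. Cyp1b1 (gene ID 25426), a P450 that is hardly expressed in untreated rat liver, read 2.45, 2.47, 2.48, 2.51 and 2.46 in the control arrays. In the BNF arrays it read 13.19, 13.45, 12.88, 12.79 and 12.95. The spread within BNF was 0.27 (SD, n = 5), and the rise of 10.58 started from background in each control rat.

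Cyp1a1 (gene ID 24296) varied among the controls, at 3.99, 5.61, 4.37, 5.76 and 6.59. The BNF arrays lay close together at 13.50, 13.77, 13.55, 13.50 and 13.62, with an SD of 0.12 against 1.07 in control (n = 5 each). Aldh3a1, an aldehyde dehydrogenase known to be hardly expressed in normal rat liver, stood between 2.94 and 3.03 in control. Its BNF values were 9.50, 8.99, 7.28, 7.85 and 7.58, the widest BNF spread of the risen targets (SD 0.95). Nqo1, the quinone reductase, was expressed in control at 9.0, 8.18, 7.52, 8.78 and 8.74 and rose to 11.52, 12.14, 11.37, 11.42 and 11.87. No BNF value of these 4 genes overlapped a control value, as held in either direction for 7.73% of all genes. Cyp1b1 and Aldh3a1 passed the filter only through the BNF arrays, which fixed this for them.

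Cyp1a2, already among the most abundant liver transcripts, rose by 0.99 (SE 0.18, limma adjusted p = 0.00406). Its BNF arrays read 14.72, 15.20, 14.75, 14.78 and 14.91 and its control arrays 13.59, 13.97, 14.13, 13.76 and 13.95. Nfe2l2, which encodes the transcription factor Nrf2 and is itself a known AhR target, rose by 0.91 (SE 0.22, adjusted p = 0.0266, limma) from 11.67 ± 0.18 to 12.58 ± 0.27 (mean ± SD, n = 5 each) with no overlap. That call was lost when BNF 1, BNF 2, BNF 4, control 4 or control 5 was left out (adjusted p up to 0.0896) and without the filter on low values. The other measured targets were not called. Tiparp stood at 8.90 ± 0.70 under BNF and 7.65 ± 1.58 in control (limma adjusted p = 0.427, n = 5 each), where control 3 read 4.87 and the other controls 8.10 or more. Xdh, xanthine dehydrogenase, differed by 0.31, Lrat by 0.30 and Htatip2 by -0.32. Ahrr and Cyp2s1 read between 1.99 and 2.09 in each BNF and control array, at background, and Slc7a5 between 2.55 and 3.62.

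The receptor and its partners gave no calls. Of 15 listed members, 7 passed the filter and 0 were called by limma; 0 were higher and 1 was lower at an unadjusted p under 0.05. Ahr itself read 7.96, 8.77, 7.34, 8.11 and 8.49 under BNF and 6.47, 7.51, 7.46, 6.66 and 8.26 in control. These ranges overlapped, and the difference of 0.86 had a 95% interval from -0.28 to 2.00 (limma adjusted p = 0.496). The chaperones Hsp90ab1 (-0.24, adjusted p = 0.305) and Ptges3 (-0.17, adjusted p = 0.589) were abundant in both groups and were not called by limma. The coactivators Ep300 (-0.02) and Ncoa1 (-0.09), the corepressor Nrip1 (-0.38) and the NF-kappa B subunit Rela (-0.03) were not called. Arnt read at most 3.13 in these 10 arrays, at background, so its level was not measured here.

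**Figure D2:**
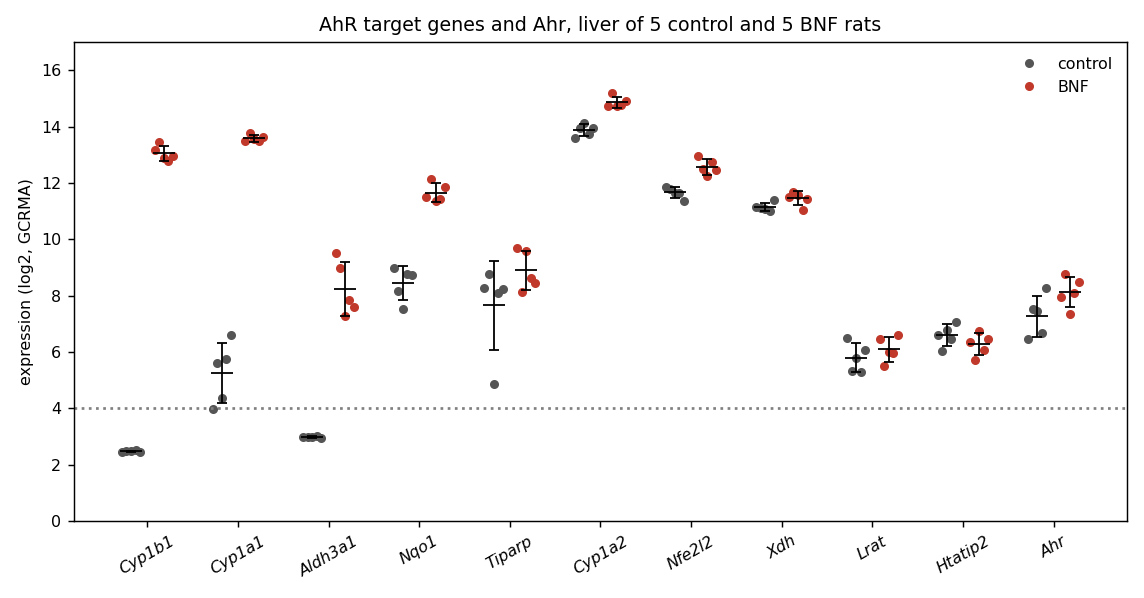
Log2 expression of 10 AhR target genes and of Ahr in the 5 control (grey) and 5 BNF (red) rats, 1 point per rat, with mean and SD in black and the background level of 4 as a dotted line. Cyp1b1, Cyp1a1, Aldh3a1, Nqo1, Cyp1a2 and Nfe2l2 do not overlap between the groups, as held for 7.73% of all genes. The filter fixed this for Cyp1b1 and Aldh3a1. The low control point of Tiparp is control 3.

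The windows of 250 bases before the start of genes with the largest or most significant increases were read for the AhR core motif. Of 16 such genes 11 had an entry with 1 start in the RefSeq promoter table (build GRCr8), 5 held GCGTG on either strand and 6 did not. The 5 are shown 5′ to 3′ on the gene's strand, with each match in capitals (CACGC is the motif on the opposite strand). They lie at chr6:21094315-21094564, plus strand (Cyp1b1), chr17:18493629-18493878, minus strand (Rbm24), chr19:52220268-52220517, minus strand (Nqo1), chr13:99397069-99397318, minus strand (Iars2) and chr1:30919625-30919874, plus strand (Exoc3).
Cyp1b1: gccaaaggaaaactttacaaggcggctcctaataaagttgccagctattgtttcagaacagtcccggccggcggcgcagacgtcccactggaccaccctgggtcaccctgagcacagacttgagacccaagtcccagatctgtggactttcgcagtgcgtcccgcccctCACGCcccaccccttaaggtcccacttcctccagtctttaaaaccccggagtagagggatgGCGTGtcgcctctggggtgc
Rbm24: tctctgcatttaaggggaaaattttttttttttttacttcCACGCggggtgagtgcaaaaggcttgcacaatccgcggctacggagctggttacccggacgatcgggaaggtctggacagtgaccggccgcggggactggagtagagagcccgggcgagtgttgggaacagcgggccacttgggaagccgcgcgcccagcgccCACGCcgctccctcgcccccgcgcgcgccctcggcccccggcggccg
Nqo1: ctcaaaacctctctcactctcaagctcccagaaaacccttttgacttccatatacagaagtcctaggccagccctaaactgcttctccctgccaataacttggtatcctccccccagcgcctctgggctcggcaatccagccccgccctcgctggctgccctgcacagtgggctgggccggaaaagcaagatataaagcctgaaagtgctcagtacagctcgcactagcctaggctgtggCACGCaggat
Iars2: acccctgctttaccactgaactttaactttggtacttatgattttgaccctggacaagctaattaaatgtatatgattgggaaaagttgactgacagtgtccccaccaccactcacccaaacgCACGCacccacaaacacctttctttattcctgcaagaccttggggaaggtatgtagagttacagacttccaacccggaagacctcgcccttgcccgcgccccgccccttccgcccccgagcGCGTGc
Exoc3: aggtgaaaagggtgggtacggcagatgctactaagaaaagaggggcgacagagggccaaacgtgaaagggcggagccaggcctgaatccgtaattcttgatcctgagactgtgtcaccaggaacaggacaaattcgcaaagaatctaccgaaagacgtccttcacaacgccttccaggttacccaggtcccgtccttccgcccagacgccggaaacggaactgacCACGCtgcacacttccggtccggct
Cyp1b1, Rbm24 and Iars2 held 2 matches and Nqo1 and Exoc3 held 1. The first base of each match stood 81 and 20 bases before the start in Cyp1b1, 210 and 47 in Rbm24, 127 and 6 in Iars2, 10 in Nqo1 and 25 in Exoc3. The longer form TNGCGTG, whose matches all contain GCGTG, occurred in Cyp1b1 alone among these 5. The short core is common. It was found in 27.8% of all 24206 such windows, in 46.4% of those of measured genes, in 37 of 97 risen genes (38.1%) and in 66 of 144 fallen genes (45.8%). TNGCGTG was found in 6.81% of the windows of measured genes, in 10 of 97 risen genes (10.3%) and in 11 of 144 fallen genes (7.64%). A match is a string of letters, not a measured binding site.

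Genes outside the classical battery also rose from background to clear expression. Rbm24, an RNA-binding protein known from muscle, read 10.19, 9.08, 9.83, 9.57 and 9.62 under BNF and between 2.22 and 2.28 in control. Scn4b, a sodium channel beta subunit, rose by 5.10, with BNF arrays at 7.95, 7.98, 7.32, 6.48 and 7.90 and controls between 2.32 and 2.52. Cox8b, the muscle form of a cytochrome c oxidase subunit, rose by 3.81, from 2.98 ± 0.05 to 6.79 ± 0.66 (SD, n = 5 each). For each of these 3 genes the control arrays were all at background and no BNF array was. All 3 passed the filter only through the BNF arrays, which fixed that those arrays lay above 4, so this is a description. Mybl1, a MYB family transcription factor, started just above it, at 4.61, 4.17, 5.04, 4.36 and 4.46, and read 9.82, 9.01, 9.13, 8.60 and 8.34 under BNF. Vxn (vexin) read 3.13 in 4 controls and 4.63 in control 3, against 8.38, 9.10, 8.04, 7.52 and 7.51 under BNF. It too passed the filter only through the BNF arrays.

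Exoc3, a subunit of the exocyst that tethers secretory vesicles, was the increase of smallest adjusted p among genes well above background in both groups. Its BNF arrays read 10.37, 10.66, 10.26, 9.98 and 10.45 and its control arrays 7.77, 7.92, 8.09, 7.85 and 7.99, a rise of 2.42 (SE 0.16, limma adjusted p = 4.38e-09). Its other 2 kept probe sets also rose, by 3.05 and 2.93. Over all called genes there were 74 other kept probe sets. Of these 67 had the same direction, 18 had it and were called, and 0 were called in the opposite direction. Iars2, the mitochondrial isoleucyl-tRNA synthetase, rose by 2.79 (SE 0.51, limma adjusted p = 0.00392), from 6.76 ± 0.52 to 9.54 ± 0.71 (SD, n = 5 each). Slc20a1, a sodium-phosphate cotransporter, rose by 1.49, S100a11, a calcium-binding protein, by 1.01, and Glrx, the glutaredoxin of the cytosol, by 0.85. In each of Exoc3, Iars2, Slc20a1, S100a11 and Glrx the lowest BNF array lay above the highest control array, as it or the reverse did in 7.73% of all genes. Iars2 was chosen among genes without overlap and the others for their small adjusted p, so this is a description.

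The stress and signalling lists moved through few members. Of 25 genes of the unfolded protein response, 2 rose and 1 fell (12% called against 4.17% of all genes, median -0.26). Trib3, a pseudokinase induced by stress and also counted among 27 Nrf2 targets, rose by 2.14, from 6.91 ± 0.40 to 9.06 ± 0.47 (SD, n = 5 each). Its other kept probe sets differed by 2.04 and by 0.99, the latter not called (limma adjusted p = 0.0508). Xbp1, a transcription factor of this response, rose by 0.43, with BNF arrays at 11.41, 11.45, 11.55, 11.64 and 11.63 and controls at 11.04, 11.07, 11.00, 11.15 and 11.26. The endoplasmic reticulum protein Creld2 fell by 0.90, a call lost without BNF 1 (limma adjusted p = 0.0655) and after median centring, and without control 3 the fallen count was 2. With D3T 5 and OLT 1 left out, or when only the BNF and control arrays were fitted, 3 members fell. Of 35 acute phase and complement genes, 3 rose (8.57% called against 4.17% of all genes, median 0.13). They were Lcn2, which passed the filter only through the BNF arrays, the interleukin-1 receptor Il1r1 and the plasma protein Orm1. Without D3T 5 the count was 6, and without both D3T 5 and OLT 1 it was 6 risen and 1 fallen. Il1r1 read 11.39, 12.05, 10.85, 11.31 and 11.17 under BNF and 9.55, 9.39, 9.38, 9.33 and 9.07 in control.

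Enzymes of conjugation did not move as a block. None of 17 measured glutathione S-transferase genes was called by limma (7 higher and 3 lower at an unadjusted p under 0.05), and the median was 0.07. With D3T 5 and OLT 1 left out, 5 of the 17 rose, with either left out alone 2 rose, and without control 1 there was 1. When only the BNF and control arrays were fitted 3 rose, after quantile normalization 2 and after median centring 1. The largest of these differences was in Gstp1, the pi class enzyme, which was singled out after its values were seen. Its BNF arrays read 10.39, 9.55, 9.58, 10.28 and 10.39 and its control arrays 7.59, 6.88, 7.89, 6.57 and 7.64, with no overlap. The difference of 2.72 had an SE of 1.01 over 20 arrays (limma adjusted p = 0.162) and an adjusted p of 7.93e-06 without those 2 arrays. Gsta3 (1.05) and Mgst2 (0.71), looked up for the same reason, had adjusted p of 0.0783 and 0.197 with all arrays and 0.00577 and 0.00301 without the pair, by limma. Gsta1, an alpha class enzyme, read 14.43 ± 0.14 against 14.22 ± 0.07 in control (limma adjusted p = 0.192, n = 5 each).

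Of 17 glucuronosyl- and sulfotransferases 0 were called by limma (0 higher and 4 lower at an unadjusted p under 0.05), and 1 fell without control 4 or with D3T 5 and OLT 1 left out; Ugt1a6, a known AhR target, had no probe set of its own. Among 27 Nrf2 targets, 2 rose and 0 fell (7.41% called against 4.17% of all genes, median 0.20). They were Nqo1, which is also an AhR target, and Trib3. With D3T 5 and OLT 1 left out 6 rose, and 6 without OLT 1 alone. The risen count was 5 when only the BNF and control arrays were fitted or after quantile normalization, and 3 after median centring. Of 33 measured cytochromes P450 outside family 1, 0 rose and 5 fell (15.2%) and 28 were not called. A negative difference was found in 27 of the 33 and in 4942 of all 7837 genes, and the median of the 33 was -0.26. One rose without BNF 2, D3T 4, D3T 5, OLT 1 or control 5, and 2 rose and 3 fell after median centring. Cyp2c22 fell by 1.71, with BNF arrays at 10.59, 10.44, 9.65, 10.63 and 10.35 and controls at 11.83, 11.61, 11.82, 12.61 and 12.36. Cyp2j3, an arachidonic acid epoxygenase, fell by 0.72, and Cyp4a1, a fatty acid omega-hydroxylase, by 0.60, a call lost after median centring. The other kept Cyp2j3 probe set differed by -0.25 and was not called (limma adjusted p = 0.457). The female-predominant Cyp2c12 read 14.48 ± 0.10 against 14.41 ± 0.23 (limma adjusted p = 0.816, n = 5 each).

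**Figure D3:**
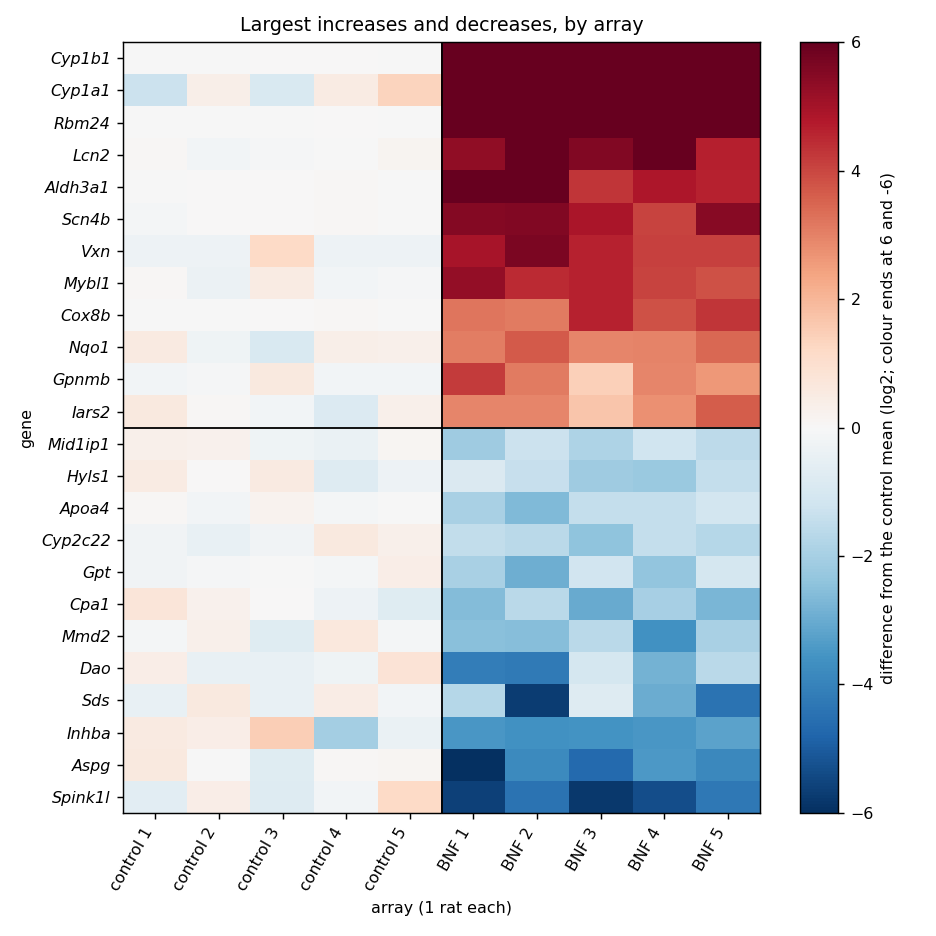
Each row is a gene and each column an array, and colour gives the log2 difference from the mean of the 5 control arrays for the 12 largest increases (above the line) and the 12 largest decreases (below it) among called genes with no overlap between groups. The choice of genes without overlap fixes that the 5 BNF arrays share a sign in each row; among them BNF 2 is the lowest for Sds and BNF 3 the highest for Sds and Dao.

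The decreases were spread over enzymes of amino acid, lipid and sugar metabolism. Of 60 genes that break down amino acids or make urea, 14 fell and 0 rose (23.3% called against 4.17% of all genes), with a median of -0.22. Aspg, an asparaginase, fell from 9.18, 8.58, 7.90, 8.68 and 8.72 in control to 2.58, 4.79, 3.96, 5.17 and 4.76. Gls2, the liver glutaminase, fell by 1.25 and read 10.91, 10.42, 11.67, 11.00 and 10.85 under BNF against 12.05 to 12.40 in control. Sds, the serine dehydratase of gluconeogenesis, had the widest BNF spread, at 9.56, 5.56, 10.50, 8.29 and 6.83 against 10.80 to 11.85 in control. Its fall of 3.12 was no longer called without control 2 (limma adjusted p = 0.0514) or when only the BNF and control arrays were fitted. Dao, the D-amino acid oxidase, varied in a like manner, at 2.95, 2.88, 6.06, 4.27 and 5.49 against 6.64 to 7.91. Hal, the histidine ammonia-lyase, fell by 1.13, a call lost without BNF 1 or BNF 2 (adjusted p up to 0.0586, limma). The first steps of the urea cycle differed little, with Cps1 at 0.03, Otc at -0.13 and Ass1 at -0.06.

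Among 34 genes of fatty acid oxidation and other targets of PPAR alpha, the nuclear receptor that drives it, 10 fell and 0 rose (29.4% called), and the median was -0.45. The count dropped to 4 without BNF 1, BNF 2, control 1 or control 2, to 5 without control 3, and to 6 after median centring or without the filter. Of the 34 differences 32 were negative, as were 4942 of all 7837 genes. Cpt2, the inner carnitine palmitoyltransferase of mitochondria, fell by 0.80 and read 9.54, 9.19, 9.80, 9.64 and 9.60 under BNF against 10.18 to 10.56 in control. Cpt1a, the outer enzyme, differed by -0.03. Lipid synthesis went both ways. Of 25 genes, 4 fell (Acaca, Fasn, Srebf1 and Mlxipl) and 2 rose (the elongase Elovl5 and the desaturase Fads1; 24.0% called, median -0.32). Leaving out single arrays left between 1 and 5 fallen and between 0 and 2 risen, with 0 risen without BNF 1, BNF 4, BNF 5, control 4 or control 5 1 fallen without control 1 or control 5 and 2 fallen without BNF 1, BNF 2, BNF 3 or control 4. Without the filter 1 fell and 0 rose. Acaca, acetyl-CoA carboxylase, fell by 1.13 (SE 0.24, limma adjusted p = 0.0101), with BNF arrays at 7.75, 8.40, 8.33, 8.23 and 8.14 and controls at 9.53, 9.02, 9.09, 9.31 and 9.57. Mid1ip1, which helps Acaca polymerise, fell by 1.61.

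Of 30 apolipoproteins and lipases, 5 fell and 1 rose (20%, median -0.08). Apoa4 fell by 1.71, with BNF arrays at 10.46, 9.75, 10.97, 10.96 and 11.31 against 12.25 to 12.63, whereas Apoa1, the main protein of HDL, rose by 0.78, from 13.89 ± 0.30 to 14.68 ± 0.16 (SD, n = 5 each). Mgll, the monoacylglycerol lipase, fell by 1.44, and the carboxylesterase Ces2c by 0.95. The other kept Mgll probe sets differed by -1.67, -1.2 and 0.0, the last not called. Of 28 genes of glucose and glycogen handling, 3 fell and 0 rose (10.7% called against 4.17% of all genes, median -0.28). The pair acting on fructose was among them. Tkfc, the triokinase, fell by 1.39, with BNF arrays at 8.35, 7.78, 8.60, 8.92 and 8.92 against 9.54 to 10.20. Khk, ketohexokinase, fell by 0.78, from 11.27 ± 0.22 to 10.49 ± 0.27 (SD, n = 5 each). The glucagon receptor Gcgr fell by 0.78, a call lost on leaving out each of 15 single arrays (limma adjusted p up to 0.146).

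Regulators changed singly. Of 20 nuclear receptors, 1 rose and 1 fell (10% called against 4.17% of all genes, median 0.02). Nr1d1, the clock repressor Rev-erb alpha, rose by 1.51, with BNF arrays at 7.62, 7.31, 6.90, 7.78 and 8.24 and controls at 5.89, 6.38, 5.84, 6.15 and 6.06. Nr1h4, the bile acid receptor FXR, fell by 0.82, from 9.72 ± 0.16 to 8.90 ± 0.17 (SD, n = 5 each), a call lost after median centring. Of 19 clock genes, 2 rose and 1 fell (15.8% called against 4.17% of all genes, median 0.03). The fallen count was 2 without BNF 3 or D3T 4, and 3 rose and 2 fell when only the BNF and control arrays were fitted. Nfil3, a repressor among them, fell by 1.52, at 8.0, 7.58, 8.74, 7.62 and 8.01 against 9.03 to 9.84. The time of day at which each rat was killed is not in the labels. Bco1, which cleaves beta-carotene to retinal, rose by 1.06, and Hjv, the hemojuvelin co-receptor for hepcidin control, fell by 0.90. Slco2a1, a prostaglandin transporter, fell by 0.96, and the amino acid transporter subunit Slc3a2 rose by 0.72. The other kept Slco2a1 probe set differed by -0.65 and was not called (limma adjusted p = 0.281). Spink1l, a Kazal-type protease inhibitor, had the largest fall, 5.09, with BNF arrays at 4.63, 5.80, 4.46, 4.91 and 5.96 and controls at 9.60, 10.62, 9.48, 10.07 and 11.43. Inhba, the activin beta A subunit, read between 2.38 and 2.77 under BNF, at background, and between 3.94 and 7.47 in control.

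**Figure D4:**
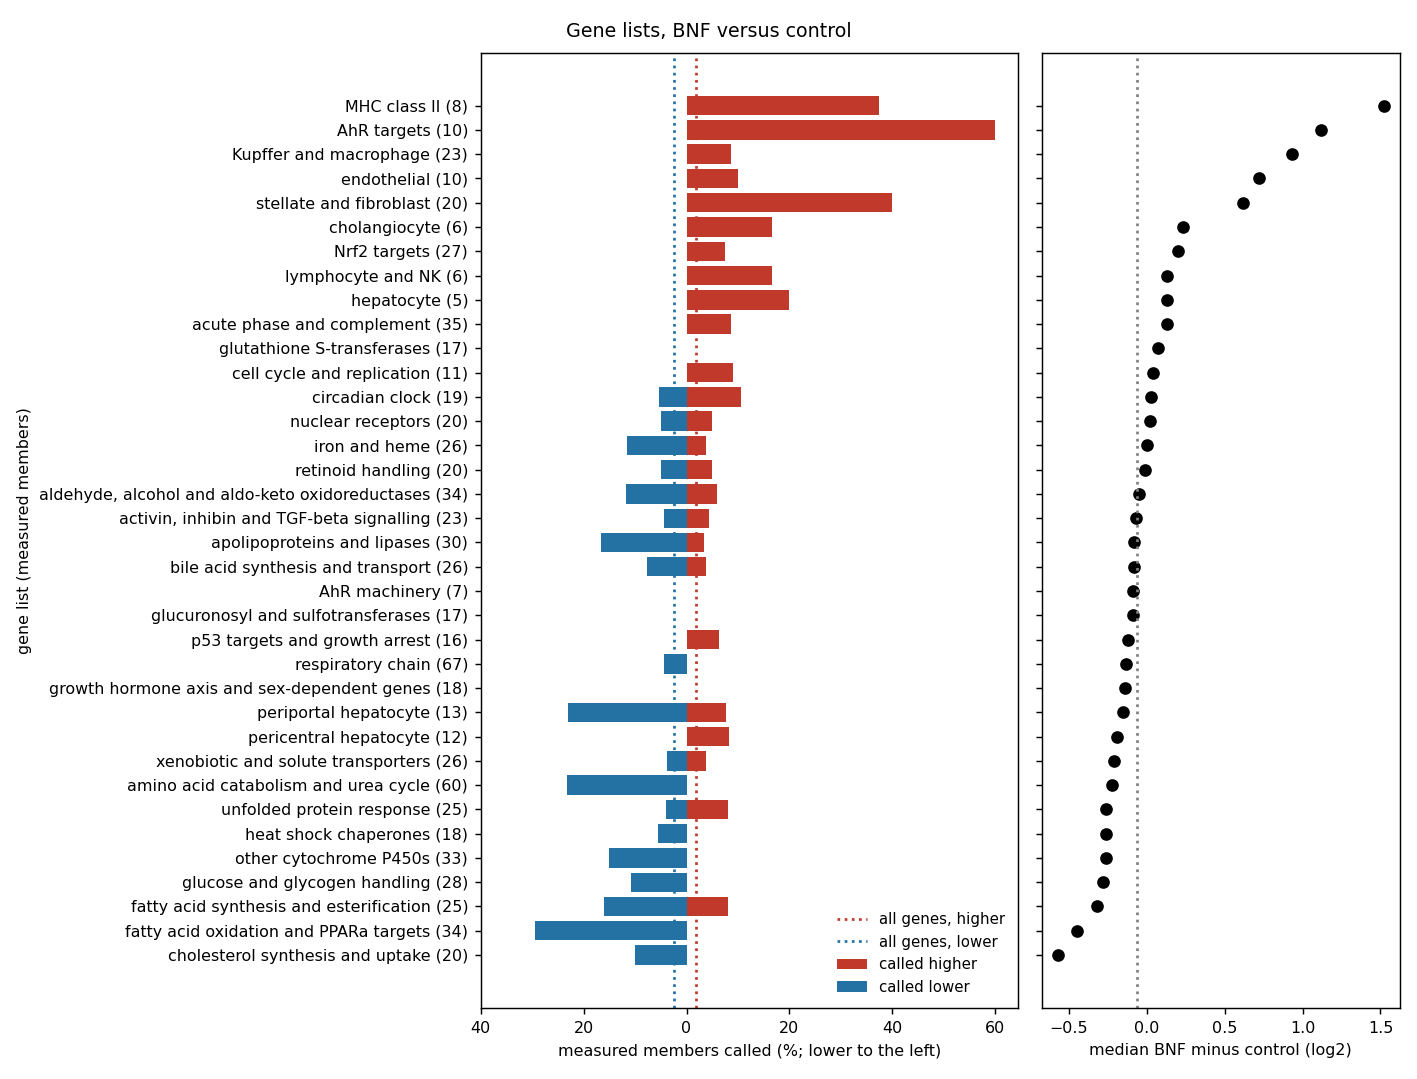
The left panel gives, for gene lists with at least 5 measured members (number in brackets), the percentage called higher (red, right) and lower (blue, left), with dotted lines at 1.77% and 2.40% for all genes. The right panel gives each list's median BNF minus control in log2, with a dotted line at -0.06 for all genes; MHC class II and AhR targets have the highest medians and cholesterol synthesis the lowest.

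Some markers of cells other than hepatocytes moved with the diet, and whole liver cannot separate more cells of a type from more RNA per cell. Of 20 stellate cell and fibroblast markers, 8 rose and 0 fell (40%, median 0.62), but the count was 3 without BNF 1, BNF 2, control 2 or control 4, 4 without control 3 or control 5, 5 without BNF 5, and 4 without the filter or when only the BNF and control arrays were fitted. Col1a1, a chain of type I collagen, rose by 2.45, at 9.22, 7.29, 7.65, 7.84 and 8.59 against 5.97, 4.85, 6.84, 4.99 and 5.71. The other kept Col1a1 probe set rose less, by 1.39 (limma adjusted p = 4.41e-04). The intermediate filament gene Vim rose by 1.16. Of these 20 markers 2 had passed the filter only through the BNF arrays. The summed level of the 20 ran from 12.48 to 13.16 under BNF and from 11.81 to 12.37 in control. The markers Des, Lum, Rgs5 and Ngfr were below the filter, and Pdgfrb differed by 0.07.

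Of 8 measured genes of MHC class II presentation, 3 rose and 0 fell (37.5%), each of the 8 differences was positive and the median was 1.52. RT1-Db1 read 11.28, 11.67, 10.63, 11.37 and 11.41 under BNF and 9.34, 8.72, 10.33, 9.43 and 9.33 in control, and RT1-Da rose by 1.65. Cd74, the invariant chain, rose by 1.38, a call lost without control 2 (limma adjusted p = 0.051). RT1-Ba (2.59) and RT1-Bb (2.48) were not called; control 5 read 3.26 and 2.25 for them, while the other controls read 6.91 or more. Among 23 Kupffer cell and macrophage markers, 2 rose and 0 fell (8.70% called against 4.17% of all genes). Of the differences 21 were positive and the median was 0.93, and 3 markers had passed the filter only through the BNF arrays. The count of 2 became 1 without BNF 1, BNF 2, BNF 5, OLT 2, control 2, control 4 or control 5, 4 without BNF 3, D3T 2 or control 3, and 8 without OLT 5. It was 9 after median centring or quantile normalization, 6 when only the BNF and control arrays were fitted and 1 without the filter. The summed level of the 23 was 13.64 to 14.63 under BNF and 13.23 to 13.83 in control, ranges that overlapped. Tyrobp, an immune adaptor, rose by 0.93, and Gpnmb, a glycoprotein of macrophages, rose by 2.87 from background, at 6.87, 5.77, 4.09, 5.60 and 5.27. Gpnmb passed the filter only through the BNF arrays.

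The remaining markers gave fewer calls. Of 10 endothelial markers 1 rose, Plvap (0.75), and their summed level was 10.85 to 11.71 under BNF and 10.47 to 11.26 in control. Of 6 cholangiocyte markers 1 rose (16.7% called), Aqp1, which passed the filter only through the BNF arrays. Aqp1 overlapped between the groups (2.92 to 5.96 under BNF, 2.52 to 3.99 in control). Its call was lost on leaving out each of 15 single arrays, 4 of BNF, 4 of control, 3 of D3T and 4 of OLT, and with D3T 5 and OLT 1 both left out. Of 6 lymphocyte markers Cd74 alone rose (16.7% called), and the count was 2 without BNF 3 and 0 without control 2. The neutrophil marker S100a8 and the red cell genes Hbb (0.45) and Hba-a3 (0.64) were not called. Of 4 pancreas markers 1 fell, the carboxypeptidase Cpa1, from 7.58 ± 0.54 to 5.18 ± 0.58 (SD, n = 5 each). The part of these other cells in the changes of Lcn2, Il1r1, Gpnmb and the class II genes was not tested.

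The dithiolethione groups, given at other doses, were compared with BNF directly. Between BNF and D3T 17.6% of genes differed and between BNF and OLT 11.7%, by the same fit (17.7% and 9.75% with D3T 5 and OLT 1 left out). Each of the single gene calls below, between BNF and D3T or OLT, stood on the same side of the threshold with D3T 5 and OLT 1 left out. Cyp1b1 stayed at 2.51 ± 0.03 under D3T and 2.54 ± 0.14 under OLT (SD, n = 5 each). Cyp1a1 was at 5.20 ± 1.90 under D3T and 7.51 ± 2.67 under OLT, where single arrays ran up to 10.28, against 13.59 ± 0.12 under BNF (SD, n = 5 each). Nqo1 read 10.86 ± 0.61 under D3T and 9.61 ± 0.89 under OLT (SD, n = 5 each). D3T minus control was called (2.41, limma adjusted p = 3.90e-04), also with D3T 5 and OLT 1 left out (2.67, adjusted p = 2.89e-06). OLT minus control was not called with all arrays (1.16, limma adjusted p = 0.0723). BNF exceeded D3T by 0.81 (95% interval 0.02 to 1.59, limma adjusted p = 0.168) and OLT by 2.06 (adjusted p = 0.00182), and by 0.55 and 2.43 with D3T 5 and OLT 1 left out. Nfe2l2 was higher under BNF than under both, by 2.02 against D3T and by 1.54 against OLT (limma adjusted p = 7.14e-06 and 2.31e-04).

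Several genes stood on opposite sides of control in BNF and in D3T, comparisons that share the control arrays. Acaca was at 8.17 ± 0.25 under BNF, 9.30 ± 0.25 in control and 10.61 ± 0.39 under D3T (SD, n = 5 each), and BNF minus D3T was -2.44 (limma adjusted p = 1.71e-06). Tkfc was at 8.51, 9.90 and 11.07 in the same order, Cyp2c22 at 10.33, 12.05 and 13.22, and Dao at 4.33, 7.10 and 9.01, and each of these 4 genes was also called higher in D3T than in control, with or without that pair of arrays. In the other direction, Glrx was at 11.13 under BNF, 10.28 in control and 9.72 under D3T, a fall against control there. Il1r1 was at 11.35, 9.34 and 8.34, and D3T minus control was not called with all arrays (-1.0, limma adjusted p = 0.145) but was with D3T 5 and OLT 1 left out (-1.46, adjusted p = 0.00446). Gstp1, by contrast, was higher under D3T (14.07 ± 2.12) than under BNF (10.04 ± 0.43; SD, n = 5 each), a difference of -4.03 (limma adjusted p = 0.0108), and of -4.97 (adjusted p = 3.44e-09) with D3T 5 and OLT 1 left out.

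Other changes did not separate BNF from the dithiolethiones by this test. Cpt2 read 9.55 under BNF, 9.36 under D3T and 9.50 under OLT, with BNF minus OLT at 0.05 (95% interval -0.26 to 0.36). Slc3a2 read 10.25, 10.22 and 10.19 in that order, and Nr1d1 7.57, 7.41 and 7.0. Falls in Aspg, Gls2 and Prodh, the proline dehydrogenase, were not matched by the dithiolethiones. Aspg read 8.81 ± 0.07 under D3T and 8.61 ± 0.21 under OLT, near the control 8.61 ± 0.46 and above BNF at 4.25 ± 1.03 (SD, n = 5 each). BNF minus D3T was -4.55 for Aspg, -1.31 for Gls2 and -1.09 for Prodh (limma adjusted p = 3.99e-08, 2.43e-05 and 1.17e-04).

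**Figure D5:**
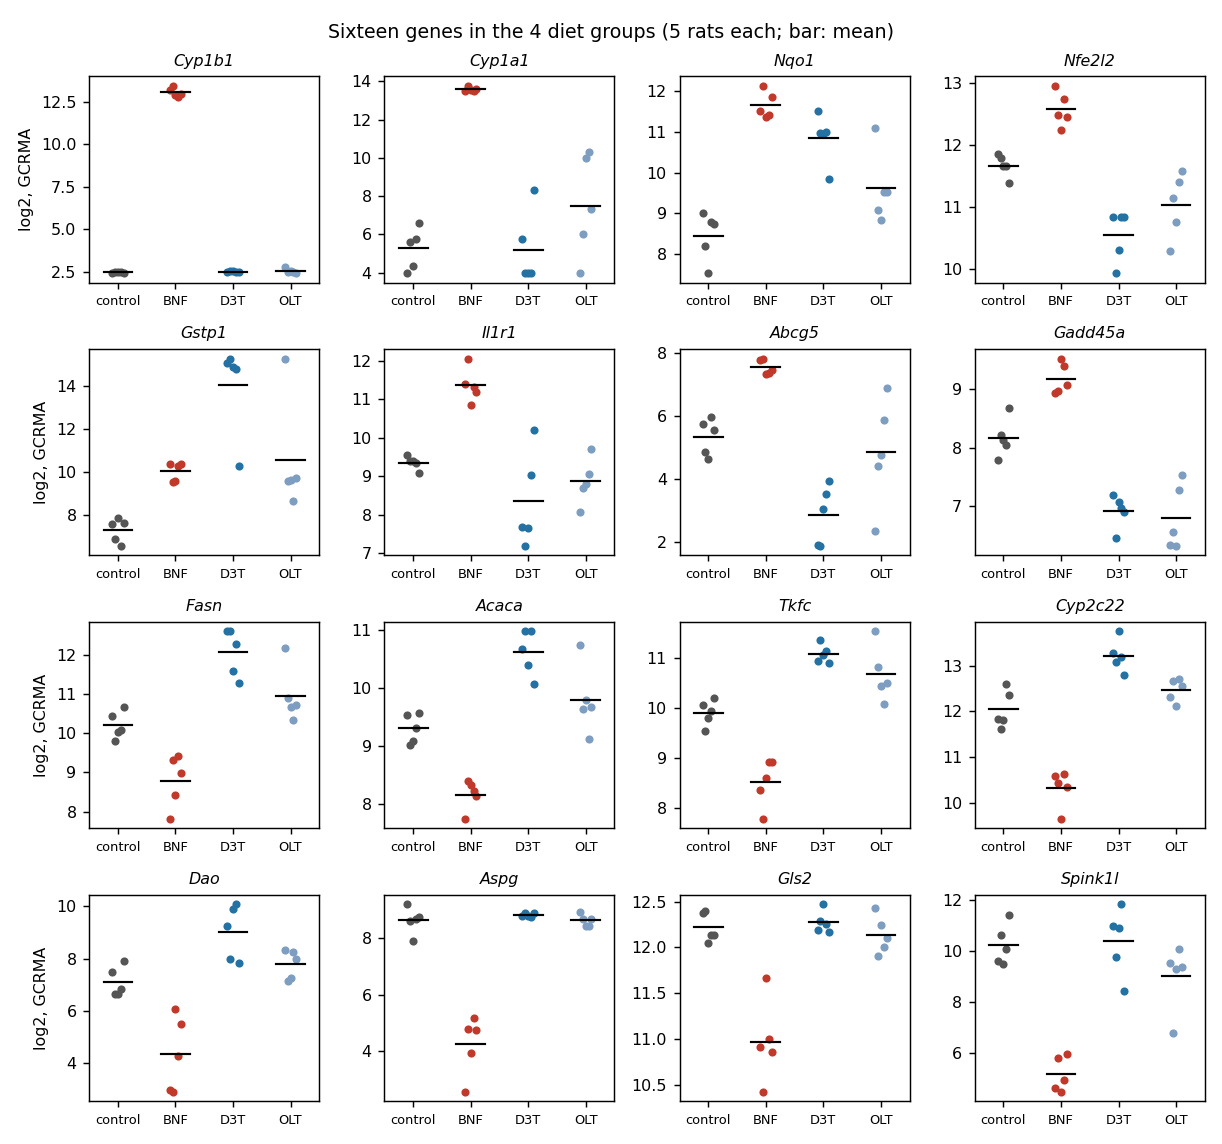
Log2 expression of 16 genes in the 4 diet groups, 1 point per rat and a bar at the mean; the y axis differs between panels. Cyp1b1 is high in the 5 BNF rats alone, Acaca, Tkfc and Cyp2c22 are lowest under BNF and highest under D3T, and in the Gstp1 panel the low D3T point and the high OLT point are the arrays labelled D3T 5 and OLT 1.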

How the data were processed

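Liver RNA of 20 rats was hybridized to 1 Affymetrix array each. The deposited values are log2 probe set summaries that the authors made with GCRMA, a method that subtracts sequence-dependent background, puts arrays on 1 scale and combines the probes of a set, per the submitters' processing notes; its version is not given in the sources used here. The values were used as given, between 0.083 and 16.46. Of 31042 probe sets, 20826 had 1 gene in the platform annotation, 436 several and 9780 none; symbols of 20758 were updated by gene ID through RefSeq and 68 kept their old one.

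Probe sets above 4 in at least 5 arrays were kept (12947; 10047 with 1 gene). limma 3.58.1 in R 4.3.3 (lmFit, eBayes with trend) fitted a mean per diet over all 20 arrays, two-sided, with Benjamini-Hochberg adjustment over kept probe sets, and was tested on simulated data. Where a gene had several kept probe sets (1699 genes), the one of highest mean was used. P-values set a difference against the spread between rats within all 4 diet groups, which includes the arrays labelled D3T 5 and OLT 1.

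The comparison, the gene lists and the arrays doubted were chosen with earlier results of these data known. Named were the AhR genes, the 12 largest increases and decreases without overlap, the 5 smallest adjusted p in each direction with both means above 6, and up to 4 called and 2 uncalled members of each list. Replicate numbers were not used as pairs: deviations from group means of same-numbered BNF and control rats correlated between -0.198 and 0.18. Scan dates were not used here.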

Additional observations from a re-analysis of the deposited data

Results flagged for a closer look

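A single array stood apart from the other 4 of its group, by Dixon's test, in 10 of 226 combinations of a named gene and a group; chance flags about 1 in 20 groups. In control, Tiparp, an AhR target, read 4.87 in control 3 against 8.10 to 8.78 in the others. The low value widened the control spread and lowered the control mean, and the other controls overlapped the BNF range of 8.12 to 9.68. In the same array Vxn read 4.63 against 3.13, and Gpnmb 3.23 against at most 2.60, both high.

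Among the BNF arrays, BNF 2 was the highest for Orm1 (14.88; next 14.18) and for the neutrophil marker S100a8 (5.20; next 3.78), and the lowest for Ugt2b15 (13.53; next 13.80) and for the AhR co-chaperone Ptges3 (12.05; next 12.46). BNF 1 was the highest for Ncoa1 (8.72; next 8.54), BNF 5 the lowest for Hspb1 (5.37; next 5.64), and BNF 3 the lowest for Cyp2c22 (9.65; next 10.35).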

How the results depend on the processing

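Over kept probe sets, 450 passed in BNF versus control, 1935 in BNF versus D3T and 1246 in BNF versus OLT. Leaving out single arrays gave 263 to 508, 1344 to 2180 and 777 to 1675. The first count fell furthest without BNF 1 (263), BNF 2 (291) and control 2 (297), and the last without BNF 1 (777). Under the other alternatives, BNF versus control gave between 316 (no filter) and 572 (quantile normalization), each within 1.5 times. With the replicate number as a block it gave 419; the numbers do not pair the rats. Of 90 named called genes none reversed under any alternative run; calls lost numbered 20 without the filter, 14 after median centring, 13 when only the groups compared were fitted, 9 with the replicate block, 7 after quantile normalization, 5 without the intensity trend, 4 with the mean of probe sets, and 1 each with the robust prior (Gcgr) and without D3T 5 and OLT 1 (Aqp1); leaving out single arrays lost up to 25. The genes whose difference changed sign were not called: Ep300 (0.05 after centring, 0.06 after quantile normalization, 0.05 without BNF 2, 0.04 without control 5), Rela (0.04, 0.04, and 0.01 without control 5), Ncoa1 (0.07 with the mean of probe sets), S100a8 (-0.01 without BNF 2) and Mgst1 (-0.03 without control 1). Leaving out single arrays, these differences ran from -0.09 to 0.05 (Ep300), from -0.05 to 0.01 (Rela), from -0.01 to 0.39 (S100a8) and from -0.03 to 0.12 (Mgst1). The cause was not tested. Values near background limit what can be said of Arnt, Ahrr and other dim genes.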
